A study of Homo sapiens with 30 samples.

Results

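SR proteins and heterogeneous nuclear ribonucleoproteins (hnRNPs) are the RNA-binding proteins that guide the choice of splice sites. SR proteins carry domains rich in arginine and serine, bind exonic enhancers and help recruit U2AF and the U1 and U2 small nuclear ribonucleoproteins (snRNPs). hnRNPs coat nascent transcripts, and members such as HNRNPA1 and PTBP1 often repress nearby splice sites. Several of these genes are known targets of the transcription factor MYC, among them PTBP1, HNRNPA1, HNRNPA2B1 and SRSF1, and several hold their own level through an unproductively spliced transcript.

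The genes were picked from the PRO-Seq table by symbol: every gene starting with SRSF or HNRNP, without 2 pseudogenes, plus RNPS1, TRA2A, TRA2B, U2AF1, U2AF2, SF3B1, SF3A1 and PTBP1. This gave 40 of the 20367 genes in the table, made up of 12 SR genes, 18 hnRNP genes, the 8 genes added by name, and 2 further transcripts whose symbols start with HNRNP. The latter are HNRNPUL2-BSCL2, a readthrough of neighbouring genes, and HNRNPU-AS1, which the table places downstream of HNRNPU on the same strand. All samples came from G401 cells, a malignant rhabdoid tumor line that lacks the SNF5 subunit (gene SMARCB1) of the SWI/SNF chromatin remodeler. Cells were transduced with lentiviral vectors for a TET-inducible EGFP (the control), OMOMYC (OmoMYC, a dominant negative form of MYC) or SNF5, and every group received 1 μg/ml doxycycline for 24 h after selection. PRO-Seq, which maps engaged RNA polymerase, had 3 samples per construct, MYC ChIP-Seq 2 and ATAC-Seq, a measure of open chromatin, 3. This is a single cell line with an induced transgene, and the paper calls the replicates biological. In the main fits p-values measure the spread left between samples after the replicate number is accounted for, part of which may be technical.

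Gene body reads summed to between 28444943 and 46957634 per PRO-Seq sample and promoter-proximal reads to between 518900 and 3386528, with replicate 1 lowest for every construct in the promoter-proximal region. Gene body counts of SMARCB1 were 4, 1 and 6 with EGFP, 2, 5 and 4 with OmoMYC and 2870, 4467 and 3440 with SNF5, as the labels require. Samples of the same replicate number deviated together, so the replicate number was kept as a block in each test.

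Splicing factor genes were heavily transcribed in these cells. Of the 40 genes, 37 had a mean of at least 10 reads in both regions, and 35 of these lay above the all-gene median gene body density. The density is given as gene body reads per kb of gene body and per 1000000 gene body reads after scaling. Its median in EGFP cells was 12.1 over the 37 genes and 1.23 over the 15060 genes tested. The highest density was that of HNRNPA2B1, at 56.0, 55.0 and 33.6 in the 3 EGFP samples (mean 48.2 ± 12.7, SD, n = 3). SRSF2, an SR protein that binds exonic enhancers, followed with 34.2, 48.2 and 42.4, and HNRNPA1, a repressor of splice sites, with 35.5, 41.3 and 36.6. The ranges of these 3 genes overlapped, so their order is not resolved.

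**Figure D1:**
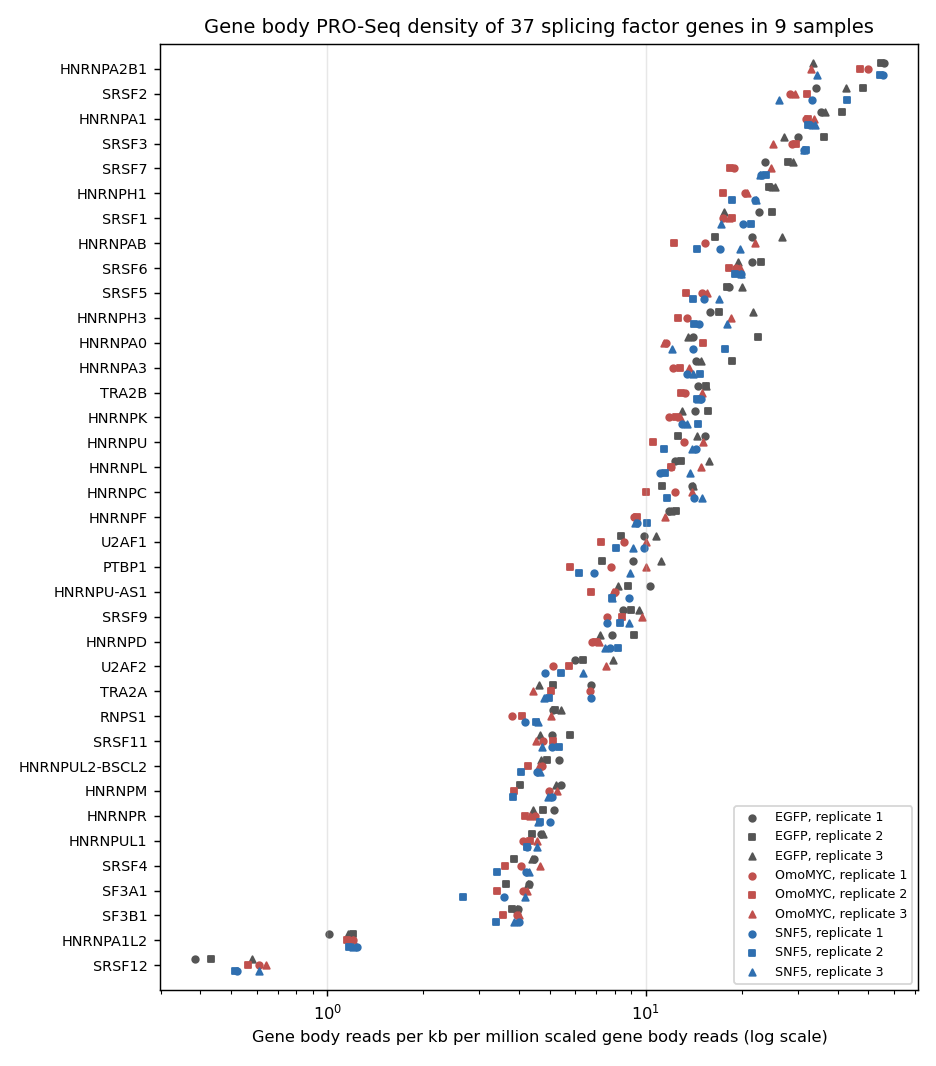
Gene body density (x axis, reads per kb per 1000000 scaled gene body reads, log scale) of the 37 genes read in both regions, ordered by their EGFP mean; each point is a sample, coloured by construct and shaped by replicate number. HNRNPA2B1 stands at the top with an EGFP mean of 48.2 and SRSF12 at the bottom with 0.465. At 10 of the 37 genes all OmoMYC points lie left of all EGFP points, and in the other rows they overlap.

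At the other end, 3 genes failed the filter. SRSF8 had 0 reads in both regions of all 9 samples, where a count of 0 allows up to 3 reads per sample by counting error alone. SRSF10 had 0 promoter-proximal reads in every sample and between 0 and 7 gene body reads, and HNRNPCL1 had at most 2 and 5. Near-identical copies can take reads away from genes of these families, so low counts need not show low transcription. The lowest genes that passed, named after their values were seen, were SRSF12, at 0.384, 0.430 and 0.580, and HNRNPA1L2, at 1.02, 1.21 and 1.16. HNRNPA1L2 resembles HNRNPA1 in sequence, so the split of reads between both is uncertain.

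The genes also differed widely in pausing. The pausing index is the read density in a 50 bp promoter-proximal window over that in the gene body, a high value marking polymerase held near the start. Among the 37 genes its EGFP mean ran from 1.51 at HNRNPL, which binds CA-rich RNA, to 217 at HNRNPA1L2, with a median of 16.9 against 28.7 over all 11171 genes tested. Replicates disagreed strongly in this measure: SRSF2 stood at 6.25, 184 and 103 in EGFP replicates 1, 2 and 3, and SRSF3 at 15.3, 108 and 44.3. Replicate 1 gave the lowest index for both genes with every construct. HNRNPA1 was steadier, at 6.11, 12.7 and 7.94.

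MYC was bound near the starts of a large share of these genes. A pair of overlapping peaks in both EGFP ChIP-Seq samples, each with its summit within 1 kb of the start, was found at 12 of the 40 genes (30%) and at 4.3% of all genes in the table. Among genes read in both regions the shares were 11 of 37 (29.7%) and 7.34%. The 12 were the SR genes SRSF2, SRSF6, SRSF7 and SRSF10, the hnRNP genes HNRNPA1, HNRNPF, HNRNPH3, HNRNPK and HNRNPR, and PTBP1, RNPS1 and TRA2B. EGFP sample 2 held 5396 peaks and sample 1 held 940. In sample 2 alone 31 of the 40 genes (77.5%) had a peak, against 23.1% of all genes, and in sample 1 alone the same 12. SRSF1, SRSF3 and HNRNPA2B1 had peaks at the start in sample 2 only. HNRNPA2B1 had overlapping peaks of both samples at another annotated start, as did HNRNPL, HNRNPU and U2AF2.

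The highest fold enrichment in EGFP sample 2 was at SRSF6, an SR protein gene on chr20 (hg19). It covered chr20:42086646-42087072 in EGFP sample 1 and chr20:42086353-42087275 in sample 2, with summits 418 and 357 bp downstream of the start, within an intron, and was 5.20-fold and 15.5-fold over the local background. These values stood at the 35.5 and 99.6 percentiles of the peaks in each sample, and in sample 1 the highest of the 12 genes was HNRNPA1. HNRNPA1 on chr12 carried peaks on both sides of its start. The upstream pair had summits at -377 and -367 bp from the start (3.62-fold and 11.4-fold) and the downstream pair at 393 and 516 bp (7.47-fold and 8.78-fold), all in annotated UTR of GENCODE transcripts, some of which start further upstream. The peaks at RNPS1, a component linked to the exon junction complex, covered chr16:2317701-2318200 and chr16:2317645-2318519 and reached 6.77-fold and 8.29-fold. At SRSF2 the pair lay 693 and 694 bp downstream of the start, in an intron, at 6.46-fold and 3.87-fold. At SRSF7 it lay 462 and 382 bp downstream, in UTR, at 4.20-fold and 8.28-fold. At the other members named above, fold enrichment was 3.73 to 5.67 in sample 1 and 5.93 to 11.2 in sample 2.

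With OmoMYC, neither list held a peak, only a placeholder line. With SNF5, the lists held 137 and 27 peaks, and 4 of the 12 genes kept a peak in a single sample: HNRNPA1 (5.16-fold), RNPS1 (5.39-fold) and SRSF7 (4.83-fold) in sample 1, and SRSF6 (6.33-fold) in sample 2. Of the 875 genes bound in both EGFP samples, 127 (14.5%) had a SNF5 peak at the start, against these 4 of 12 (33.3%), a difference that was not tested. None of the 40 genes had a peak in both SNF5 samples. Peaks come without counts of reads here, so this difference has no test.

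**Figure D2:**
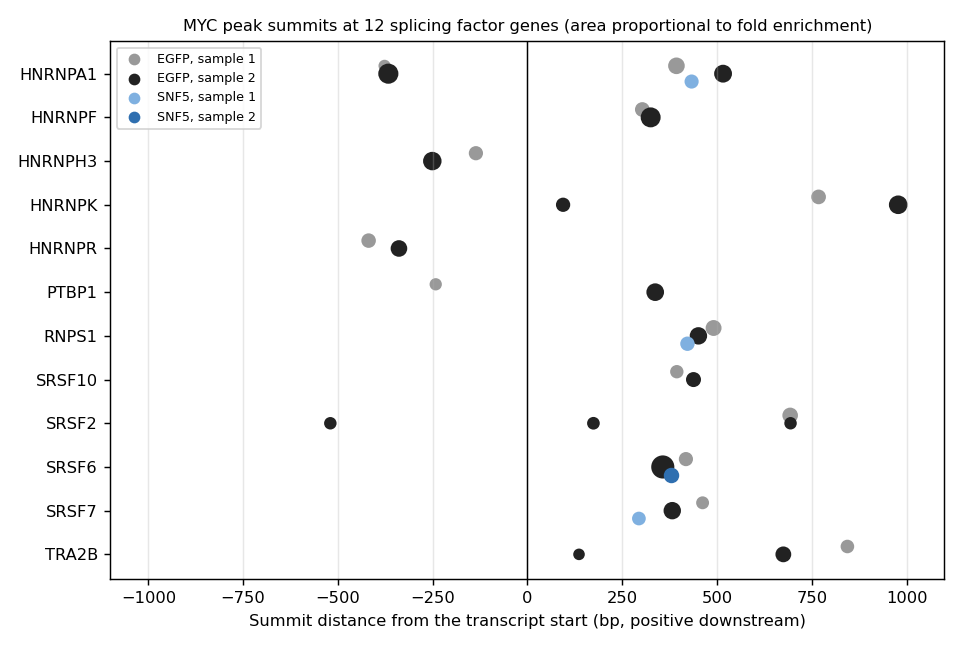
Position of MYC peak summits relative to the transcript start (x axis, bp, positive downstream) at the 12 genes with overlapping peaks in both EGFP samples; points are summits in EGFP and SNF5 samples, with area proportional to fold enrichment. Summits at SRSF6, SRSF7, RNPS1, SRSF10 and HNRNPF lie between 294 and 491 bp downstream of the start, the largest point is SRSF6 in EGFP sample 2 at 15.5-fold, and no point is from an OmoMYC sample.

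MYC with its partner MAX binds the E-box, CACGTG. The 12 genes had 13 regions shared by both EGFP peaks, since HNRNPA1 has a pair on each side, and 5 of the 13 (38.5%) held this motif, at HNRNPH3, HNRNPA1, SRSF2 and SRSF6. The share over all 921 such regions in the genome was 58.4%. The related hexamer CACGCG, on either strand, lay in 9 of the 13 regions (69.2%) and in 42.3% of all regions. The windows around the E-boxes at HNRNPH3 (chr10:70091388-70091417) and SRSF6 (chr20:42086929-42086958) read as follows in GRCh37 on the strand of the gene, with the E-box in capitals. The E-boxes of HNRNPA1 and SRSF2 also lie under peaks of both samples. They are not shown, because these genes had no entry among the RefSeq promoters used below.
HNRNPH3: tgccggtcgaacCACGTGgggccctttccg
SRSF6: tacgggcgcgcgCACGTGcgcgtcctggct
The E-box of HNRNPH3 begins at -368 bp from the transcript start in the table, and that of SRSF6 at 437 bp, close to the SRSF6 summits.

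Promoters of the family were also read from RefSeq starts in GRCh38.p14, where 36 of the 40 genes had an entry in the table used. An E-box lay between 250 bases before and 50 bases after the start in 6 of 36 (16.7%), namely HNRNPA3, HNRNPD, HNRNPH3, HNRNPM, HNRNPUL1 and SF3B1, and in 8.77% of 27305 genes. Of these 6, HNRNPH3 had peaks in both EGFP samples, HNRNPA3, HNRNPD, HNRNPM and SF3B1 in sample 2 alone, and HNRNPUL1 in neither. The 150 bases before the start are shown for 4 of them, on the strand of the gene and with the E-box in capitals, at chr10:68331543-68331692 for HNRNPH3, chr2:177212644-177212793 for HNRNPA3, chr4:82373992-82374141 for HNRNPD and chr19:8444825-8444974 for HNRNPM.
HNRNPH3: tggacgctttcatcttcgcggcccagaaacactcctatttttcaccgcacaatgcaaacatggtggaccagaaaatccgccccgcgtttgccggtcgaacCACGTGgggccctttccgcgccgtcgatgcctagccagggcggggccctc
HNRNPA3: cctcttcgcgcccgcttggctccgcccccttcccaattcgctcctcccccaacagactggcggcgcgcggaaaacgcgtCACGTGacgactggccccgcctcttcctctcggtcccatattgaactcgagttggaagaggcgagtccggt
HNRNPD: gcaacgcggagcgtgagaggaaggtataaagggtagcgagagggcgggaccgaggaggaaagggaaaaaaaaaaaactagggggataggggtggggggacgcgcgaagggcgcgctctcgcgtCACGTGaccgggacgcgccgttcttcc
HNRNPM: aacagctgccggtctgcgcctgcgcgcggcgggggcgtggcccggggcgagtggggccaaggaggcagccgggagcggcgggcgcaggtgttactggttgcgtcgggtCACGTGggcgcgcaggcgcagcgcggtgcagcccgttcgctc
The letters around the E-box of HNRNPH3 are those printed above from GRCh37; RefSeq places the start closer to it, at -50 bp. A match shows the letters only, not binding.

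To ask what loss of MYC function did to transcription of these genes, gene body counts with OmoMYC were compared with EGFP. Relative to other genes, transcription of the family was lower with OmoMYC. Counts were scaled by the gene body reads of each sample, so a change shared by all genes would not be seen. This holds for every PRO-Seq comparison here. Of the 37 genes read, 35 had a log2 fold change below 0, and the median was -0.16 against 0.00 over all genes. The test called 9 genes lower (24.3%) and none higher, where 8.53% of all genes were called, 4.42% lower and 4.1% higher. Density was lower in all 3 same-numbered pairs at 28 of the 37 genes (75.7%; 27.5% of all genes), and at 10 of them all OmoMYC samples lay below all EGFP samples (5.46% of all genes). Their share of all gene body reads was 0.648%, 0.631% and 0.631% in EGFP replicates 1, 2 and 3 and 0.595%, 0.555% and 0.608% with OmoMYC, lower in each pair.

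The largest falls were at SRSF2, HNRNPAB, SRSF7 and HNRNPA0. SRSF2 density was 34.2, 48.2 and 42.4 with EGFP and 28.5, 32.1 and 29.5 with OmoMYC. All 3 OmoMYC values lay below the EGFP values, and counts fell by 0.46 on the log2 scale (SE 0.12, edgeR quasi-likelihood adjusted p = 0.0469). HNRNPAB fell from 21.5, 16.5 and 26.8 to 15.3, 12.3 and 22, lower in each pair though the groups overlap (log2 fold change -0.40, SE 0.08, adjusted p = 0.0258). SRSF7, an SR protein that also acts in mRNA export, fell from 23.6, 27.9 and 29.0 to 18.9, 18.4 and 24.7 (log2 fold change -0.38, adjusted p = 0.0394). HNRNPA0 changed by -0.37 (adjusted p = 0.0425). The other 5 called genes, listed after their values were seen except for HNRNPH3 and RNPS1, were SRSF5 (-0.36), HNRNPH1 (-0.34), HNRNPA3 (-0.30), HNRNPH3 (-0.30) and RNPS1 (-0.29).

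Several of the most abundant or best known factors did not pass the threshold. PTBP1 stood at 9.12, 7.28 and 11.1 with EGFP and at 7.78, 5.78 and 10.0 with OmoMYC, lower in 3 of 3 pairs (log2 fold change -0.24, SE 0.07, adjusted p = 0.0567). HNRNPA1 was at 31.8, 32.3 and 33.7 with OmoMYC, below all EGFP values (-0.21, adjusted p = 0.0714). HNRNPA2B1 changed by -0.13 (adjusted p = 0.128), SRSF1 by -0.24 (0.106) and SRSF3 by -0.16 (0.189). Only HNRNPA1L2 and SRSF12, named here after their values were seen, had a positive value. SRSF12 density was higher in each pair, at 0.612, 0.563 and 0.640 with OmoMYC (log2 fold change 0.39, SE 0.12, adjusted p = 0.0731).

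By class, 3 of 10 SR genes, 5 of 17 hnRNP genes and RNPS1 were called lower, with medians of -0.16 and -0.20 for the SR and hnRNP genes. The 11 read genes with MYC peaks in both EGFP samples were all below 0, with a median of -0.24 and 4 calls, and the other 26 had a median of -0.13 with 5 calls. Over the whole table, the median paired log2 change was -0.15 for the 829 bound genes and 0.01 for the others.

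Which genes pass depended on the samples. Without the replicate block 0 of the 37 genes and 1 of all 15060 were called. Leaving out replicate 1 or replicate 2 in all constructs gave 0 calls (2 genes in the whole table in each case), while leaving out replicate 3 gave 31 calls among the 37, 30 lower and 1 higher, with 45.0% of all genes called. DESeq2 called 14, 13 lower and 1 higher, with 13.9% of all genes called. Between 34 and 36 of the 37 genes stayed below 0 in these 3 fits, with medians from -0.22 to -0.10.

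**Figure D3:**
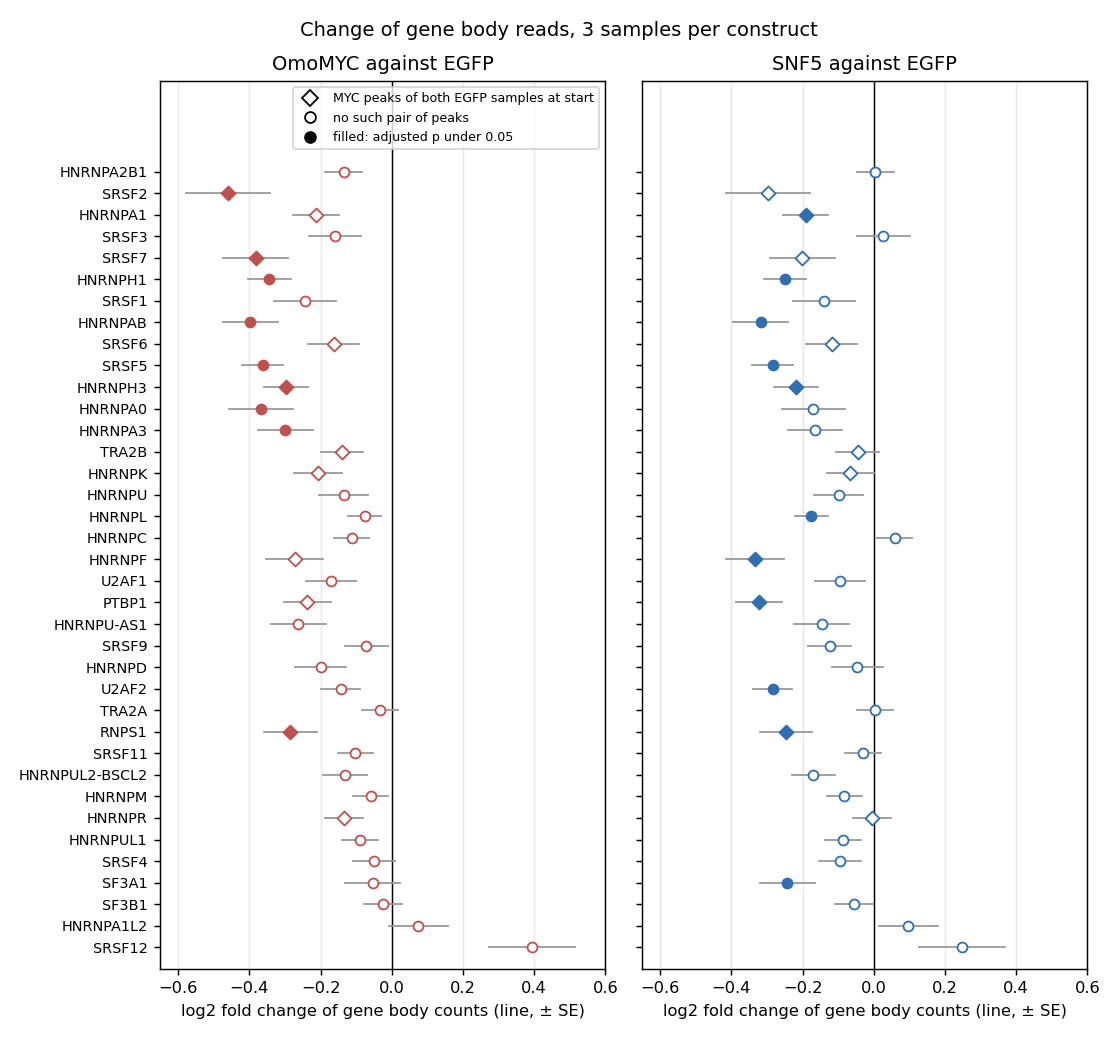
Log2 fold change of gene body counts (x axis, point with ± SE line, 3 samples per construct) for OmoMYC and SNF5 against EGFP, genes ordered by EGFP density; filled points have an adjusted p under 0.05 and diamonds mark MYC peaks of both EGFP samples at the start. With OmoMYC 35 of 37 points and with SNF5 31 of 37 lie left of 0, and all filled points lie left of 0.

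Short genes changed most with OmoMYC. The 5 genes with gene bodies of up to 5 kb had a median paired log2 change of -0.36, the 8 of 5 to 10 kb -0.26, the 10 of 10 to 20 kb -0.20 and the 13 of 20 to 50 kb -0.06. The medians of all genes in these classes were -0.08, -0.07, -0.03 and -0.01, so length moved with the change in the whole table as well. Above 50 kb the median of all genes was 0.06, and the only member, HNRNPC, stood at -0.11. Whether length has a part in the calls was not tested.

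SNF5 was compared with EGFP in the same way, to ask how its return acts on the same genes. Gene body counts were below EGFP at 31 of 37 genes, with a median log2 fold change of -0.12 against -0.03 over all genes. The test called 11 lower (29.7%) and none higher, where 34.1% of all genes were called, 16.5% lower and 17.6% higher, so the share called in either direction was not above that of all genes. Density was lower in all 3 pairs at 23 of the 37 genes (62.2%; 31.5% of all genes), and at 6 the groups did not overlap (8.07% of all genes). These comparisons share the EGFP samples, so their values are not independent of those above. The share of gene body reads was 0.615%, 0.576% and 0.586%, again lower in each pair.

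HNRNPF, which binds runs of guanines, fell from 11.8, 12.5 and 12 to 9.39, 10.1 and 9.28, with no overlap of the groups (log2 fold change -0.33, SE 0.08, adjusted p = 0.0128). PTBP1 fell to 6.87, 6.17 and 8.90, lower in each pair (log2 fold change -0.32, SE 0.07, adjusted p = 0.00626). HNRNPAB changed by -0.32 (adjusted p = 0.0129), and U2AF2, the large U2AF subunit that reads the polypyrimidine tract, by -0.28 (adjusted p = 0.00534). HNRNPA1 and RNPS1 were lower than every EGFP sample, at 32.9, 32.2 and 34.1 for HNRNPA1 (-0.19, adjusted p = 0.0466) and 4.17, 4.52 and 4.58 for RNPS1 (-0.25, adjusted p = 0.0313), whose EGFP values were 5.13, 5.17 and 5.43. HNRNPH3 changed by -0.22 (adjusted p = 0.0242). The other called genes, named after their values were seen, were SRSF5 (-0.28), HNRNPH1 (-0.25), the U2 snRNP gene SF3A1 (-0.24) and HNRNPL (-0.17).

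The calls of HNRNPA1, HNRNPL and SF3A1 were lost in the fit without the OmoMYC samples, and that of HNRNPA1 also without the filter on low counts. The calls comprised 1 of 10 SR genes, 6 of 17 hnRNP genes and 4 of the 8 genes added by name, and differences between these classes were not tested. SRSF2 was at 33.3, 42.7 and 26.3 (log2 fold change -0.30, SE 0.12, adjusted p = 0.081) and SRSF7 at 23.1, 23.8 and 22.9 (-0.20, adjusted p = 0.118). SRSF3 had a log2 fold change of 0.03 (SE 0.07) and HNRNPA2B1 of 0.00 (SE 0.05). TRA2B and HNRNPK, which had MYC peaks in EGFP cells, had values of -0.05 and -0.07. The 11 genes with MYC peaks in both EGFP samples were all below 0, with a median of -0.20 and 5 calls, and the other 26 had a median of -0.10 and 6 calls. The medians in the whole table were -0.20 for bound and -0.01 for other genes.

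As with OmoMYC, calls rested on the set of samples: 0 without the replicate block, 0 without replicate 1, 1 without replicate 2 and 25 without replicate 3 (24 lower and 1 higher), where the shares of all genes called were 1.49%, 11%, 9.56% and 56.8%. By length, the medians of the paired log2 change were -0.19, -0.14, -0.17 and -0.06 for the same 4 classes of up to 50 kb, and those of all genes were -0.20, -0.17, -0.10 and -0.04. Above 50 kb HNRNPC stood at 0.06 and the median of all genes at 0.13.

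**Figure D4:**
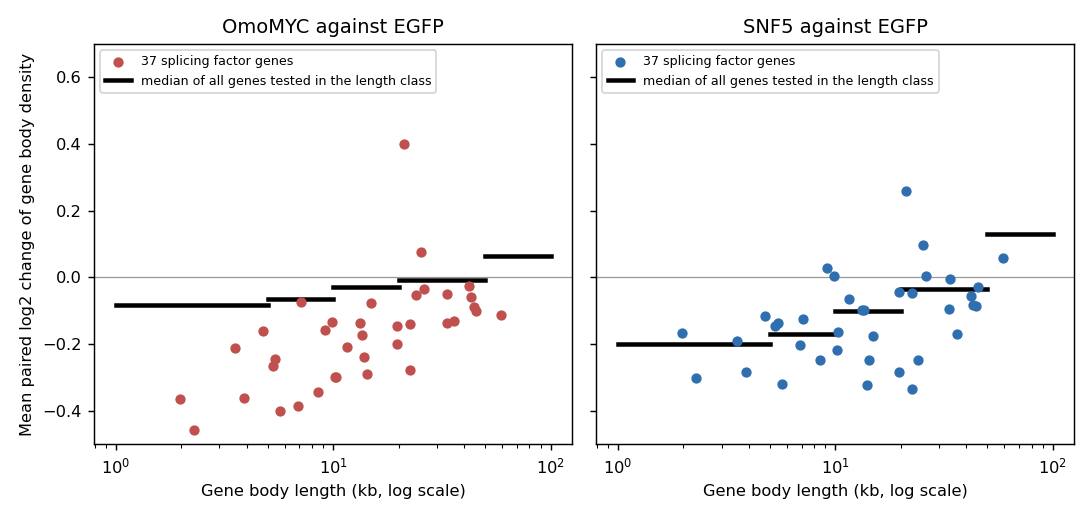
Mean paired log2 change of gene body density (y axis) against gene body length (x axis, kb, log scale) for the 37 genes (points) with the median of all genes tested in each length class (bars). Up to 5 kb the median of the points is -0.36 with a bar at -0.08 for OmoMYC, and -0.19 with a bar at -0.20 for SNF5.

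A direct comparison of SNF5 with OmoMYC asks whether both acted alike on these genes. Few differences were resolved. The median log2 fold change was 0.07, and 1 of 37 genes was called (2.7%), where 18.9% of all genes were, 11.5% higher and 7.38% lower. HNRNPC, which binds uridine tracts, stood at 14.2, 11.7 and 15.1 with SNF5 and at 12.4, 10.1 and 14 with OmoMYC, higher in 3 of 3 pairs (log2 fold change 0.17, SE 0.05, adjusted p = 0.0422). Its EGFP values, 14, 11.2 and 14.1, overlapped both groups. This call was lost without the replicate block, with TMM factors, without the EGFP samples in the fit, and without replicate 1 or 2. Without replicate 3, 18 of the 37 genes were called, and 41.7% of all genes. Among the genes named above, differences that did not pass were 0.20 (SE 0.09, adjusted p = 0.159) for HNRNPA0, 0.18 (SE 0.09) for SRSF7, 0.16 (SE 0.12) for SRSF2, 0.08 (SE 0.08) for HNRNPAB, 0.04 (SE 0.07) for RNPS1, -0.06 (SE 0.08) for HNRNPF, -0.09 (SE 0.07) for PTBP1 and -0.14 (SE 0.06, adjusted p = 0.114) for U2AF2.

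Near the starts few changes were resolved, and they depended on scaling. Errors were larger here than in gene bodies. With SNF5, U2AF2 changed by -0.61 (SE 0.25) and SRSF2 by 0.53 (SE 0.25), and neither was called. In gene bodies the SEs of these genes were 0.06 and 0.12. With OmoMYC 1 of 37 genes was called in the promoter-proximal region (2.7%; 1.8% of all genes, 1.63% higher and 0.169% lower). This was SRSF6, with 97, 670 and 367 promoter-proximal reads in EGFP samples 1, 2 and 3 and 293, 1142 and 611 with OmoMYC. Every OmoMYC sample was higher than its pair, although the groups overlap (log2 fold change 1.04, SE 0.24, adjusted p = 0.0203). The call was lost without replicate 1 (0.76) and without replicate 2 (1.21), where 0 genes of the family were called. The shares of all genes called in these fits were 1.945% and 0.027%. With SNF5 against EGFP and against OmoMYC 0 of 37 were called by edgeR, with 11 and 5 at an unadjusted p under 0.05, and also 0 by DESeq2. By edgeR the shares of all genes called were 4.27% with SNF5 (2.64% higher and 1.63% lower) and 0.827% between the constructs (0.48% higher and 0.347% lower). By DESeq2 they were 2.78% and 0.543%. Without replicate 1, 5 genes were called with SNF5, all lower (8.69% of all genes called), and without replicate 3, 1 gene in each of these comparisons (5.42% and 4.35% of all genes). The median log2 fold change of all genes in this region was 0.13 with OmoMYC, and -0.03 when scaled by the region's own counts. The median of the 37 genes was 0.00 and -0.15 under these scalings.

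The pausing index rose at 3 SR genes with OmoMYC, SRSF6, SRSF2 and SRSF7, all with MYC peaks in both EGFP samples. These were 3 of 37 genes (8.11%), where 2.26% of all genes were called, 2.18% higher and 0.0806% lower. At SRSF6 the index was 2.59, 19.6 and 8.16 with EGFP and 8.85, 42.6 and 13.3 with OmoMYC (log2 fold change 1.18, SE 0.23, adjusted p = 0.00244). At SRSF2 it went from 6.25, 184 and 103 to 12.3, 348 and 152 (0.81, SE 0.20, adjusted p = 0.0168), and at SRSF7 from 10.2, 40.8 and 17.1 to 16.7, 85.8 and 26.8 (0.81, SE 0.21, adjusted p = 0.0235). All were higher in 3 of 3 pairs, and the groups overlap. By limma on log2 ratios 0 of the 37 genes and 0 of all genes were called with OmoMYC, with 7 of the 37 at an unadjusted p under 0.05, and SRSF7 was not called with each region scaled by its own counts (0.64).

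In the parts of the ratio, SRSF6 rose near the start, with a gene body change of -0.16 (adjusted p = 0.17). SRSF2 and SRSF7 fell in the gene body by 0.46 and 0.38 on the log2 scale, with promoter-proximal changes of 0.34 (adjusted p = 0.537) and 0.42 (adjusted p = 0.343). The hnRNP genes had no call among 17, where 2.26% of all genes were called. Their median was 0.12, against 0.32 for 10 SR genes and 0.14 for all genes, and the difference between the classes was not tested. The largest hnRNP value, named after it was seen, was that of HNRNPA0, higher in 3 of 3 pairs (0.73, SE 0.22, adjusted p = 0.0651). RNPS1, which fell in the gene body, had an index of 12.7, 105 and 38 with EGFP and 24.0, 94.4 and 33.6 with OmoMYC, higher in 1 of 3 pairs (0.16, SE 0.22). HNRNPA1 stood at 6.78, 11.9 and 6.57 (-0.07, SE 0.21), PTBP1 changed by 0.51 (SE 0.22, adjusted p = 0.22) and HNRNPR by 0.51 (SE 0.22, adjusted p = 0.244).

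**Figure D5:**
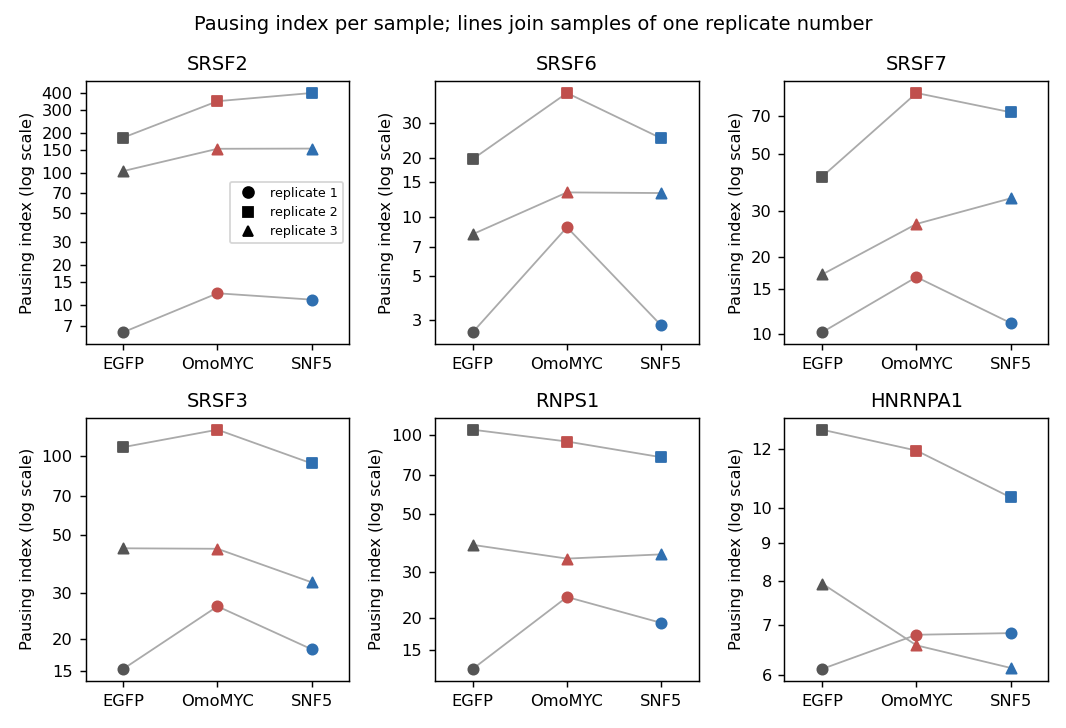
Pausing index (y axis, log scale, a different range in each panel) of 6 genes in the 9 samples, grouped by construct; lines join samples of the same replicate number. SRSF2, SRSF6 and SRSF7 rise from EGFP to OmoMYC in all 3 pairs, and replicates of SRSF2 with EGFP span 6.25 to 184.

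With SNF5 SRSF2 alone was called, at 11, 401 and 152 (log2 fold change 0.83, SE 0.20, adjusted p = 0.00903). This is 2.7% of the 37 genes, where 3.66% of all genes were called, 2.02% higher and 1.64% lower. By limma 0 of the 37 genes were called (0.627% of all genes), with 2 at an unadjusted p under 0.05 (0.83 for SRSF2). SRSF7, at 11.1, 72.3 and 33.6, was higher in 3 of 3 pairs (0.65, SE 0.21, adjusted p = 0.0613), and SRSF6 was at 2.81, 25.1 and 13.2 (0.40, SE 0.23, adjusted p = 0.347). Against OmoMYC the SRSF6 index was lower in 3 of 3 pairs (-0.78, SE 0.23, adjusted p = 0.0635). In this comparison 0 of 37 genes were called by edgeR and 0 by limma, with 5 and 3 at an unadjusted p under 0.05. Of all genes 1.23% were called by edgeR (0.125% higher and 1.1% lower) and 0.215% by limma. The median of the 37 genes was -0.24 against -0.13 over all genes, and -0.06 against 0.03 with each region scaled by its own counts. Pausing calls rested on the block and on replicate 2: 0 of the 37 genes were called in any comparison without either. The same loss was seen over all genes. Without the block 0% of all genes were called in each comparison. Without replicate 2 the shares of all genes were 0%, 0.037% and 0.055% for OmoMYC, SNF5 and their difference. Without replicate 1 the calls among the 37 genes numbered 2, 3 and 0, where 1.36%, 5.45% and 0.773% of all genes were called. Without replicate 3 those among the 37 numbered 5, 1 and 2, with 8.62%, 3.57% and 4.38% of all genes.

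Other genes of the splicing machinery were counted in 6 lists of 140 genes, 122 of them read in the gene body. With OmoMYC 20 were lower (16.4%) and 0 higher, where 4.42% of all genes were lower and 4.1% higher. With SNF5 44 were lower (36.1%) and 3 higher, where 16.5% of all genes were lower and 17.6% higher. The medians were -0.15 with OmoMYC and -0.11 with SNF5. Without the replicate block none was lower in either comparison, and the counts with OmoMYC and SNF5 became 0 and 7 when replicate 1 was left out, 0 and 5 for replicate 2, and 87 and 76 for replicate 3. Over the whole table, 0 and 438 of 15165 genes were lower without replicate 1, and 0 and 307 of 14936 without replicate 2. Without replicate 3, 3650 and 4644 of 14939 genes were lower. Of 26 genes for proteins of the U1, U2, U4/U6 and Sm particles, 7 were lower with OmoMYC and 15 with SNF5, with medians of -0.23 and -0.25. SNRPE and SNRPF, which belong to the Sm ring, changed by -0.46 and -0.43 with OmoMYC (adjusted p = 0.0336 and 0.0214), and the U4/U6.U5 gene SART1 by -0.45 with SNF5 (adjusted p = 0.00216). Genes of the U5 particle, the Prp19 complex and RNA helicases were lower at 5 and 12 of 25, led by BUD31 (-0.43 and -0.41). Exon junction and export genes were lower at 1 and 5 of 10: EIF4A3, the helicase at the core of that complex, changed by -0.44 with OmoMYC (adjusted p = 0.015), and the export adaptor ALYREF by -0.92 with SNF5 (adjusted p = 0.00103). Sm methylation and assembly genes were lower at 1 and 6 of 11, among them PRMT5, the arginine methyltransferase of Sm proteins, at -0.46 with SNF5 (adjusted p = 0.00324). Kinases, phosphatases and importers of SR proteins were lower in the gene body at 1 and 0 of 12, the former being the SR kinase SRPK1 (-0.26, adjusted p = 0.0384). With SNF5 the kinases PRPF4B and DYRK1A were lower in the promoter-proximal region (-0.995 and -0.77, adjusted p = 0.0108 and 0.0412) and in the pausing index (-0.90 and -0.74, adjusted p = 0.0148 and 0.0486). They were the only promoter-proximal calls with SNF5 in the 6 lists, 2 of 118 genes (1.7%). This share is near that of all genes called lower there, 1.63%. Other regulators were lower at 5 and 6 of 38 (13.2% and 15.8%), the latter near the 16.5% of all genes. With SNF5 3 of the 38 were higher, where 17.6% of all genes were. These were ESRP1 (1.56), MBNL2 (1.44) and MBNL1 (0.46), which act in epithelial and developmental splicing. Over the 6 lists, the pausing index was higher with OmoMYC at 6 of 118 genes and lower at 0 (2.18% and 0.0806% of all genes). Among these 6 were SNRPE (1.005), KHDRBS1 (1.12), PCBP1 (1.12) and the SR kinase CLK1 (0.79). With SNF5 the index was higher at 0 and lower at 3 (2.02% and 1.64% of all genes). Of 134 listed genes in the table, 14 (10.4%) had MYC peaks in both EGFP samples. The share was 4.3% over all genes and 7.34% over genes read in both regions.

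Open chromatin was read at the 36 genes with a GRCh38.p14 start. A peak lay within 1 kb of the start in all 3 samples at 27 genes with EGFP (75.0%; 24.8% of all genes), 26 with OmoMYC (72.2%; 22.2%) and 30 with SNF5 (83.3%; 35.6%). The lists differ in size, from 7260 to 33596 peaks. When every list was shortened to the length of the smallest, 20, 19 and 18 genes had a peak in all 3 samples. These were 55.6%, 52.8% and 50% of the 36 genes with EGFP, OmoMYC and SNF5. The shares of all genes were then 17.1%, 16.1% and 16.6%. SRSF6, SRSF7, HNRNPF, HNRNPK, HNRNPR, PTBP1 and TRA2B had a peak in all 9 samples, RNPS1 in 2 of 3 with each construct, and U2AF1 and HNRNPCL1 in none. U2AF1 was transcribed all the same, at a gene body density of 9.89, 8.37 and 10.7 with EGFP. The lack of a peak therefore need not mean a closed start. SRSF10 had a peak in all 9 samples and SRSF8 in 8, in spite of their PRO-Seq counts.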

How the data were processed

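For PRO-Seq, the authors used hg19 and RefSeq transcripts. Their deposited table holds raw counts, both for the 50 bp window within 500 bp of the start that has most reads (promoter-proximal) and for gene bodies from 1 kb past the start, with a density signal for the latter (reads by bp). Dividing count by density gave the body length within 1% at all 37 members read. For MYC ChIP-Seq (hg19) and ATAC-Seq (hg38), the authors called peaks in each sample with MACS2, and the deposited lists give position, summit, fold ratio over background and −log10 p and −log10 q. IgG samples were not used here.

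The members and lists were chosen with earlier results of these data known. One transcript was kept per symbol. Counts of all genes with a mean of at least 10 were kept and tested with edgeR 4.0.16 (quasi-likelihood, Benjamini-Hochberg at 0.05), with construct and replicate number as terms over the 9 samples and gene body totals times RLE factors as offsets for both regions. The pausing index was tested as the interaction of region and construct. Fits were tested on simulated data. Deviations from group means correlated at 0.81 to 0.92 between samples of the same number in gene bodies, 0.69 to 0.85 near starts, and at most 0.29 otherwise, so numbers were taken to pair samples; the pairing comes from the data, as the labels do not say what a number shares. Peaks were matched to starts in the table, GENCODE 44 features and GRCh38.p14 RefSeq starts without conversion between builds. Named were the 3 members of highest and of lowest density, up to 4 called members per test and direction, members with MYC peaks, RNPS1, SRSF1, SRSF2, SRSF3, HNRNPA1, HNRNPA2B1 and PTBP1, and up to 3 called genes per list; other members were chosen after their values were seen. Alternatives were the fit without the block, TMM factors, RLE factors of each region, DESeq2 1.42.0, limma 3.58.1 on log2 ratios with 0.5 added, no filter, a mean of at least 50, fits of 2 constructs, and leaving out each replicate.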

Additional observations from a re-analysis of the deposited data

Results flagged for a closer look

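HNRNPC differed between SNF5 and OmoMYC in the gene body, with a log2 fold change of 0.17 between them (0.06 for SNF5 and -0.11 for OmoMYC against EGFP), the only member for which the test of the difference passed the threshold. It has the longest gene body of the 37 genes. It kept its sign and lost the call without replicate 1 (0.16), without replicate 2 (0.155), with TMM factors (0.16) and without the block (0.17) and without EGFP in the fit (0.17).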

How the results depend on the processing

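All 26 calls of single genes kept their sign under every alternative run, and 154 of 239 refits kept the call. The replicate block decided the calls: without it the number of members called was 0 in each of the 9 PRO-Seq comparisons, in place of 1, 9, 11, 1, 3 and 1 where members had been called. DESeq2 called 14 members in gene bodies with OmoMYC (13.9% of all genes). For the pausing index limma on log2 ratios called 0 in place of 3 and 1 (0% and 0.627% of all genes). RLE factors of each region's own counts gave 2 members in the promoter-proximal region with OmoMYC and 1 with SNF5 (2.21% and 8.83% of all genes). For the pausing index with SNF5 they gave 2 (7.34% of all genes). TMM factors gave 0 in gene bodies of SNF5 against OmoMYC (19.3% of all genes). Fits of 2 constructs gave 0 there (16.6% of all genes). They gave 2 for both the promoter-proximal region and the pausing index of SNF5 against OmoMYC (2.57% and 2.92% of all genes). For that index no filter gave 1 (1.2% of all genes). Leaving out a replicate moved the promoter-proximal counts over 0 to 1 (OmoMYC), 0 to 5 (SNF5) and 0 to 1 (SNF5 against OmoMYC), the gene body counts over 0 to 31, 0 to 25 and 0 to 18, and the pausing counts over 0 to 5, 0 to 3 and 0 to 2. For the 6 lists of other splicing genes, where these alternatives were chosen after seeing the data, the numbers lower in gene bodies (20 with OmoMYC, 44 with SNF5) became 0 and 0 without the block, 31 with DESeq2 for OmoMYC, and 0 to 87 and 5 to 76 when a replicate was left out. With DESeq2 1077 of all 15060 genes were lower with OmoMYC. When a replicate was left out, 0 to 3650 and 307 to 4644 of all genes were lower. The cause of these moves was not tested. MYC peaks in either EGFP sample marked 31 members, and each EGFP sample alone 12 and 31; other distances, thresholds and starts gave 8 to 16. Constructs were not compared by a test for peaks, because the lists hold no read counts. With equal peak numbers, 18 members had ATAC peaks in all 3 SNF5 samples in place of 30 (16.6% of all genes in place of 35.6%). Promoter-proximal reads were fewest in replicate 1.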
